A study of Mus musculus with 8 samples.

Results

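The transcripts of 10 genes that set the activity of mTORC1 were measured in *iMLL-AF9* mouse leukemic cells treated with IOX5, an inhibitor of the HIF prolyl hydroxylase PHD2, or with DMSO, its vehicle. The genes were *Ddit4*, *Sesn1*, *Sesn2*, *Sesn3*, *Deptor*, *Tsc1*, *Tsc2*, *Castor1*, *Depdc5* and *Rheb*, chosen by symbol from the 54838 genes listed. All 10 passed the filter on low counts that left 12405 genes for testing. Bulk RNA-seq read counts were at hand for 4 DMSO and 4 IOX5 samples, 8 in all, and the labels number the samples of either group from 1 to 4. All samples were labeled as bone marrow leukemic stem cells of genotype WT and, by their titles, carried *iMLL-AF9*, a doxycycline-inducible fusion oncogene. The design text calls the cells preleukemic. Dose, time, the age of the mice and the meaning of the sample numbers are not given in the labels, nor is whether the samples came from separate cultures or mice, so every p-value measures the spread between these samples, which may be technical.

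mTORC1 is a protein kinase complex that drives protein synthesis and cell growth. It is switched on at the lysosome by the small GTPase RHEB, after RAG GTPases have brought it there in response to amino acids. The TSC complex (TSC1 and TSC2) turns RHEB off, and REDD1, the product of *Ddit4*, a gene induced by hypoxia and stress, acts through TSC. DEPDC5 is the catalytic subunit of GATOR1, which turns the RAG GTPases off, and GATOR2 holds GATOR1 back. Sestrins and CASTOR1 bind GATOR2, SESN2 as a sensor of leucine and CASTOR1 as a sensor of arginine. DEPTOR binds mTOR itself and inhibits it. RHEB is thus the target of the brakes and an activator, not a brake.

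Promoter sequences were looked up for these genes because HIF binds DNA at the core letters ACGTG or GCGTG. RefSeq windows of 300 bases, from 250 before to 50 after the annotated start (GRCm38.p6), were at hand for 9 of the 10 genes, all but *Deptor*, in 10 windows, since *Sesn1* had a pair of them. The *Ddit4* window held 1 ACGTG and 1 GCGTG, counting both strands. At least 2 places with either motif were found in 20.6% of the 32851 windows of all genes, and at least 1 place in 43.8%. ACGTG alone was in 19.6% of the windows and GCGTG alone in 32.4%. The part of the *Ddit4* window before the gene start (chr10:59951835-59952020, minus strand) and that of *Sesn2* (chr4:132510502-132510706, minus strand) are shown 5′ to 3′ because *Ddit4* was the gene of the 10 with the highest fold change and *Sesn2* the one with the lowest. Capitals mark the motif.
Ddit4: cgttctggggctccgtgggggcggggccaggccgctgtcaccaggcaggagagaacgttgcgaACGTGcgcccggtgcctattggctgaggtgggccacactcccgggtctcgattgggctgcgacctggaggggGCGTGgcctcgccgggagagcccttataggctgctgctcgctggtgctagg
Sesn2: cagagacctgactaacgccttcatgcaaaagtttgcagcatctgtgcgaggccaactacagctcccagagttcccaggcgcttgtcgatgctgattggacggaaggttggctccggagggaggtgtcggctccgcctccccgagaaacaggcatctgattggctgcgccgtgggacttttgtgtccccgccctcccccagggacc
The motif places of *Ddit4* began 123 and 51 bases before the GENCODE M21 gene start, at which both printed stretches end, and *Sesn2* had 0 places. *Castor1* had 1 ACGTG and 4 GCGTG. *Rheb* had 2 ACGTG, which are the strands of 1 palindromic CACGTG, a sequence in 7.15% of all windows. *Depdc5*, *Tsc1* and *Tsc2* had 1 GCGTG each, *Sesn3* had none, and of the *Sesn1* windows 1 had 2 GCGTG and the other none. A match describes letters in the window and is no evidence of binding.

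Reads assigned to genes numbered 12343770 to 14116054 per DMSO sample and 11351507 to 12708888 per IOX5 sample. Values are CPM (read counts relative to the library total) scaled with TMM factors, and differences are log2 fold changes of IOX5 over DMSO from edgeR's quasi-likelihood test, with a gene called at a Benjamini-Hochberg adjusted p under 0.05. Samples separated by number as well as by treatment. *Mpo*, the myeloperoxidase gene of myeloid progenitors, ran from 984.1 to 1565 CPM in numbers 1 and 2 and from 3077 to 3915 CPM in numbers 3 and 4. *Kit*, a progenitor receptor, ran from 44.0 to 82.4 CPM in numbers 1 and 2 and from 94.9 to 133.2 CPM in numbers 3 and 4. Because samples of the same number deviated together, the comparison was also fitted with the number as a block. Over all genes tested, 0.774% were called higher and 1.25% lower with IOX5 without the block (96 and 155 genes, or 101 and 108 with upper-quartile factors), and 11.2% higher and 9.43% lower with it. Of the labeled cell type's markers, *Hoxa9*, *Meis1*, *Mpo* and *Kit* were present in every sample. T cell markers summed to at most 0.163 CPM and B cell markers to at most 0.178 CPM, with *Cd8a* and *Ms4a1* at 0. Macrophage markers summed to between 37.4 and 73.6 CPM with DMSO and between 81.7 and 234.7 CPM with IOX5, with *C1qa* at most 0.706 CPM. Erythroid markers summed to between 2.64 and 15.3 CPM with DMSO and between 4.26 and 23.4 CPM with IOX5. The list for stroma and endothelium (*Col1a1*, *Pecam1* and *Cdh5*) summed to between 83.9 and 164.0 CPM with DMSO and between 131.9 and 218.7 CPM with IOX5. That sum does not show which cells gave the reads. In bulk samples, fewer cells of a type and less RNA per cell cannot be told apart.

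*Ddit4* was the only one of the 10 genes called under any fit of all 8 samples. It encodes REDD1 and lies at chr10:59949669-59951834 on the minus strand (GRCm38; ENSMUSG00000020108). With DMSO it was at 47.9, 39.9, 64.5 and 52.7 CPM in numbers 1 to 4, and with IOX5 at 76.2, 66.2, 109.6 and 95.2 CPM. Every IOX5 sample was above every DMSO sample, and the number with the lowest value was 2 and that with the highest 3 in both groups. The means were 51.3 ± 10.3 and 86.8 ± 19.4 CPM (SD, n = 4), from 513 to 1402 reads a sample, a fold change of 1.69 (95% interval 1.27 to 2.26). All IOX5 samples were above all DMSO samples in 5.98% of genes tested, and all were below in 8.3%; of the 10 genes, 1 was above and 0 were below.

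The call of *Ddit4* depended on the test and on the block. Without the block its log2 fold change was 0.76 (SE 0.185), with an edgeR adjusted p of 0.0686, so that it missed the threshold. With the block it was 0.75 (SE 0.0659), with an edgeR adjusted p of 2.48e-05. Within numbers 1, 2, 3 and 4, the log2 CPM of *Ddit4* was higher with IOX5 by 0.67, 0.73, 0.76 and 0.85, so that the difference was of like size within each number while the levels differed between numbers. DESeq2 without a block gave 0.77, with an adjusted p of 0.0027, in a test that called 3.92% of 11038 genes higher and 4.95% lower. The exact two-sided permutation test over the 70 assignments gave p = 0.0286, the smallest it can give. That test treated the 8 samples as unpaired and did not use the numbers. A larger absolute fold change than that of *Ddit4* was found in 396 genes (3.19%).

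**Figure D1:**
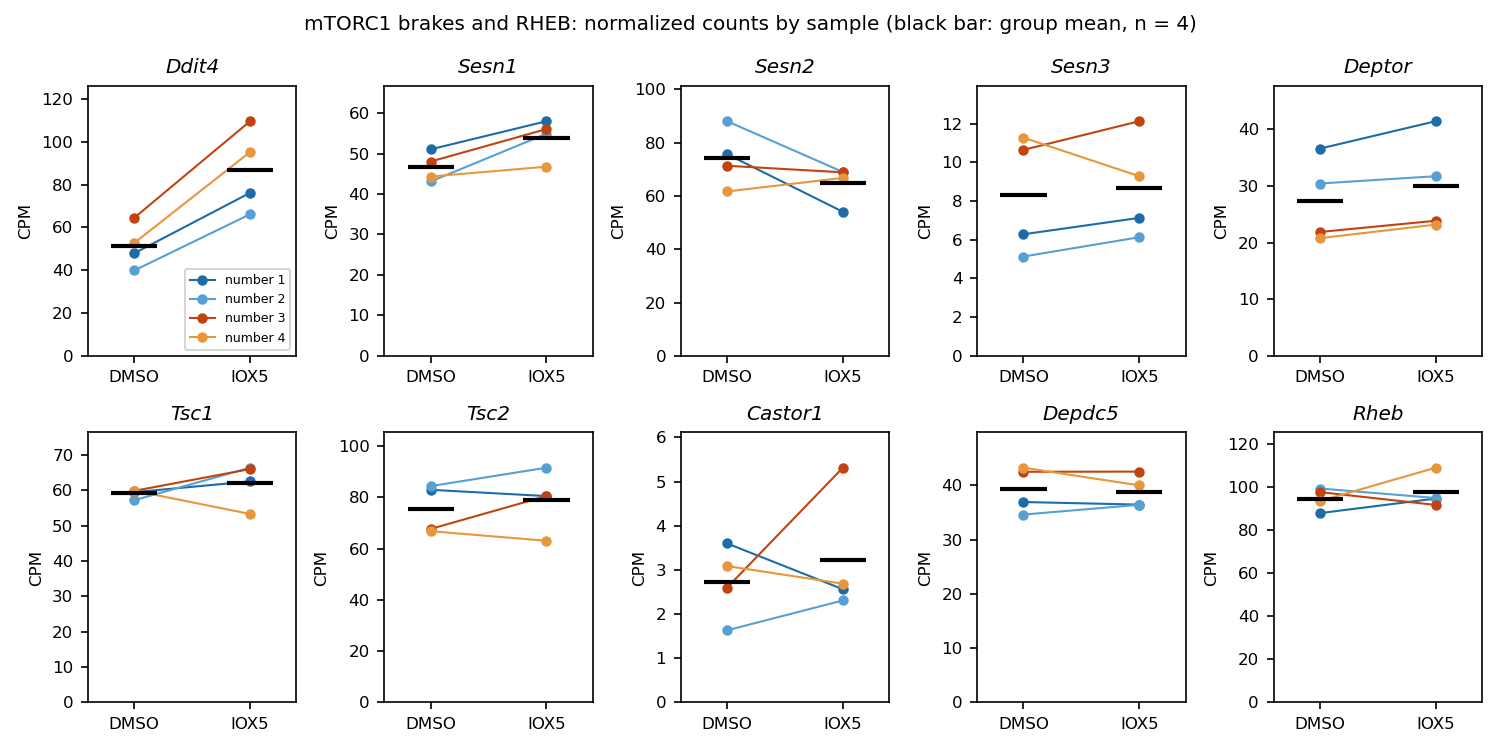
Normalized counts (CPM, vertical axis from 0) of the 10 genes in each sample, with 1 line for each sample number joining DMSO to IOX5 and black bars at the group means (n = 4). *Ddit4* rises along all 4 lines without overlap between groups, *Sesn1* and *Deptor* are higher along all 4 lines with overlap, and *Deptor*, *Sesn3* and *Depdc5* separate numbers 1 and 2 from numbers 3 and 4.

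Of the 3 macrophage markers, *Adgre1* and *Mrc1* were called with the block, and *C1qa* was near 0 in both groups and not tested. *Adgre1*, which encodes F4/80, was at 54.4, 49.6, 32.3 and 36.9 CPM with DMSO and at 87.2, 170.5, 86.4 and 65.7 CPM with IOX5, with an edgeR adjusted p of 0.0663 without the block and 1.85e-04 with it. The highest *Adgre1* was in IOX5 number 2. *Ddit4* was lowest in number 2 in both groups, and within that number it was higher with IOX5 by 0.73 on the log2 scale. *Mrc1*, the mannose receptor gene, had a log2 fold change of 1.85 with the block (edgeR adjusted p = 4.16e-04). The progenitor markers *Kit* (0.40, edgeR adjusted p = 0.00259) and *Mpo* (0.25, edgeR adjusted p = 0.0196) were higher with the block too, as were *Itgam*, *Hbb-bt* and *Pecam1*. The part of these cells in the *Ddit4* result was not tested.

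The estimates of the sestrins differed in sign, and none was called in a fit of all 8 samples. *Sesn1*, a p53 and FOXO target (chr10:41809935-41908424, plus strand), was at 51.0, 43.1, 48.0 and 44.3 CPM with DMSO and at 58.0, 54.9, 56.0 and 46.7 CPM with IOX5. It was higher with IOX5 within every number, by 0.077 to 0.35 on the log2 scale, while the groups overlapped through IOX5 number 4. The log2 fold change was 0.21 (SE 0.0872, 95% interval 0.012 to 0.41), with an edgeR adjusted p of 0.222 without the block and 0.0557 with it. *Sesn2*, an ATF4 and p53 target (chr4:132492032-132510501, minus strand), was at 75.7, 88.0, 71.3 and 61.7 CPM with DMSO and at 54.1, 69.0, 68.9 and 66.8 CPM with IOX5. It was lower with IOX5 in numbers 1, 2 and 3 and higher in number 4, and the groups overlapped. Its log2 fold change was -0.20 (SE 0.120, 95% interval -0.47 to 0.073), with an edgeR adjusted p of 0.394, and the estimate was -0.11 without DMSO number 2 and -0.12 without IOX5 number 1. Leaving number 4 out of the blocked fit brought both genes past the threshold, *Sesn1* at 0.25 (edgeR adjusted p = 0.0386) and *Sesn2* at -0.29 (edgeR adjusted p = 0.0369). Whether either gene was called thus depended on that 1 number. *Sesn3*, a FOXO target (chr9:14275067-14333101, plus strand), gave only 66 to 155 reads a sample. Its values were 6.28, 5.13, 10.6 and 11.3 CPM with DMSO and 7.13, 6.13, 12.1 and 9.28 CPM with IOX5, so that numbers 1 and 2 were below numbers 3 and 4 in both groups. The 95% interval of its log2 fold change ran from -0.63 to 0.75.

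Per kilobase of exon, *Sesn2* made up most of the sestrin reads in all 8 samples. Its share was 62.2, 69.4, 61.7 and 59.9% with DMSO and 50.9, 58.3, 57.1 and 60.9% with IOX5. The share was lower with IOX5 in 3 of 4 numbers, and IOX5 number 4 lay within the DMSO range. The means were 63.3 ± 4.19% and 56.8 ± 4.26% (SD, n = 4), a difference of -6.51 percentage points. It missed the threshold by the exact unpaired permutation test (p = 0.0571, or 0.114 adjusted by Benjamini-Hochberg over the 2 ratios tested). The smallest p this test can give is 0.0286. Beside the other ratio, *Tsc2* to *Tsc1* (exact unpaired permutation p = 0.943), the adjusted p could not have passed 0.05 whatever the share. *Sesn1* held nearly all the rest, 35.0 ± 3.62% with DMSO and 41.5 ± 4.39% with IOX5. *Sesn3* held 1.67 ± 0.744% and 1.73 ± 0.481%. That *Sesn2* led in every sample depended on the division by length. In IOX5 number 1 alone, *Sesn1* had more undivided reads (724) than *Sesn2* (675). Without the division the *Sesn2* share differed by -6.48 percentage points between groups (exact unpaired permutation p = 0.0857).

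**Figure D2:**
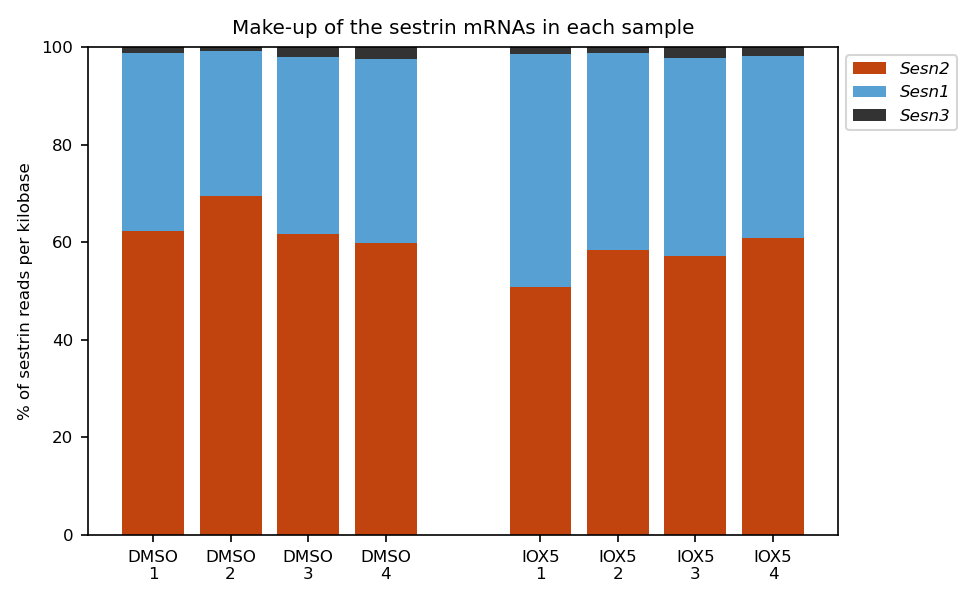
Share of *Sesn2*, *Sesn1* and *Sesn3* in the sestrin reads per kilobase of exon (vertical axis, %), with 1 stacked bar for each sample. *Sesn2* is the largest segment in every bar, between 59.9 and 69.4% with DMSO and between 50.9 and 60.9% with IOX5.

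Neither subunit of the TSC complex was called. *Tsc1* (chr2:28641228-28691167, plus strand), the stabilizing subunit, was at 59.5, 57.2, 59.9 and 59.9 CPM with DMSO and at 62.6, 66.4, 66.1 and 53.3 CPM with IOX5. The DMSO samples lay within 3 CPM of each other, and the IOX5 samples lay on both sides of them. *Tsc2* (chr17:24595816-24632630, minus strand), the subunit that acts on RHEB, was at 82.9, 84.4, 67.7 and 66.8 CPM with DMSO and at 80.5, 91.6, 80.5 and 63.1 CPM with IOX5. The log2 fold changes were 0.070 (95% interval -0.10 to 0.24; edgeR adjusted p = 0.650) for *Tsc1* and 0.064 (-0.22 to 0.35; edgeR adjusted p = 0.814) for *Tsc2*. Per kilobase, the ratio of *Tsc2* to *Tsc1* was 1.71, 1.81, 1.39 and 1.37 with DMSO and 1.58, 1.70, 1.50 and 1.45 with IOX5. The log2 ratio differed by -0.0046 between groups (exact unpaired permutation p = 0.943). Exons of *Tsc2* share 693 bases with *Pkd1* on the opposite strand, which had 5317 reads over all samples against 7751 for *Tsc2*, and the strand setting of the counting is not stated, so the level of *Tsc2* is uncertain. *Rheb* (chr5:24802823-24842624, minus strand) was at 87.7, 99.2, 97.5 and 93.4 CPM with DMSO and at 94.5, 94.8, 91.5 and 108.8 CPM with IOX5. It was higher in 2 of 4 numbers, and the 95% interval of its log2 fold change was -0.12 to 0.21.

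*Deptor*, the inhibitor that binds mTOR (chr15:55112317-55259271, plus strand), separated the samples by number. It was at 36.6, 30.4, 21.9 and 20.8 CPM with DMSO and at 41.4, 31.7, 23.8 and 23.2 CPM with IOX5. Numbers 1 and 2 lay between 30.4 and 41.4 CPM and numbers 3 and 4 between 20.8 and 23.8 CPM, with no overlap. Within each number *Deptor* was slightly higher with IOX5, by 0.060 to 0.18 on the log2 scale. The log2 fold change was 0.13, with an interval of -0.41 to 0.67 without the block and of -0.042 to 0.30 with it, and it was not called by either (edgeR adjusted p = 0.799 and 0.263). Leaving out IOX5 number 1 turned the estimate to -0.064. Its exons share 303 bases with *Gm9920* on the opposite strand, which had 125 reads against 2893 for *Deptor*. IOX5 was above DMSO in all 4 numbers in 21.3% of genes tested and below in 19.8%; of the 10 genes, 3 were above in all 4 numbers (*Ddit4*, *Sesn1* and *Deptor*) and 0 below.

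The amino acid branch gave no call. *Depdc5* (chr5:32863701-32994236, plus strand) was at 36.9, 34.6, 42.5 and 43.2 CPM with DMSO and at 36.4, 36.4, 42.5 and 40.0 CPM with IOX5. Numbers 1 and 2 were below numbers 3 and 4 in both groups, and the log2 fold change of -0.017 (95% interval -0.23 to 0.20) was the smallest in size of the 10. *Castor1* (chr11:4218225-4222409, plus strand), with 21 to 68 reads a sample, was at 3.60, 1.63, 2.60 and 3.09 CPM with DMSO and at 2.56, 2.31, 5.32 and 2.69 CPM with IOX5. Its difference was within the spread between samples, with a 95% interval of -0.54 to 1.01 for the log2 fold change. Its estimate was 0.24, the second largest in size of the 10 genes after *Ddit4*. The intervals of *Castor1* and *Sesn3* were the widest of the 10 genes without the block, and with it they ran from -0.31 to 0.74 and from -0.21 to 0.36.

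Counted together, 0 of the 10 genes were called by edgeR without the block, against 2 at an unadjusted p under 0.05 (*Ddit4* and *Sesn1*, 20% of the 10, against 20.2% of all genes tested). By edgeR with the block 1 was called higher and 0 lower (11.2% and 9.43% of all genes), and by DESeq2 also 1 and 0 (3.92% and 4.95%). The median log2 fold change of the 10 genes was 0.067 and that of all genes 0.017. The median absolute change was 0.10 for the 10 genes and 0.16 for all genes.

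**Figure D3:**
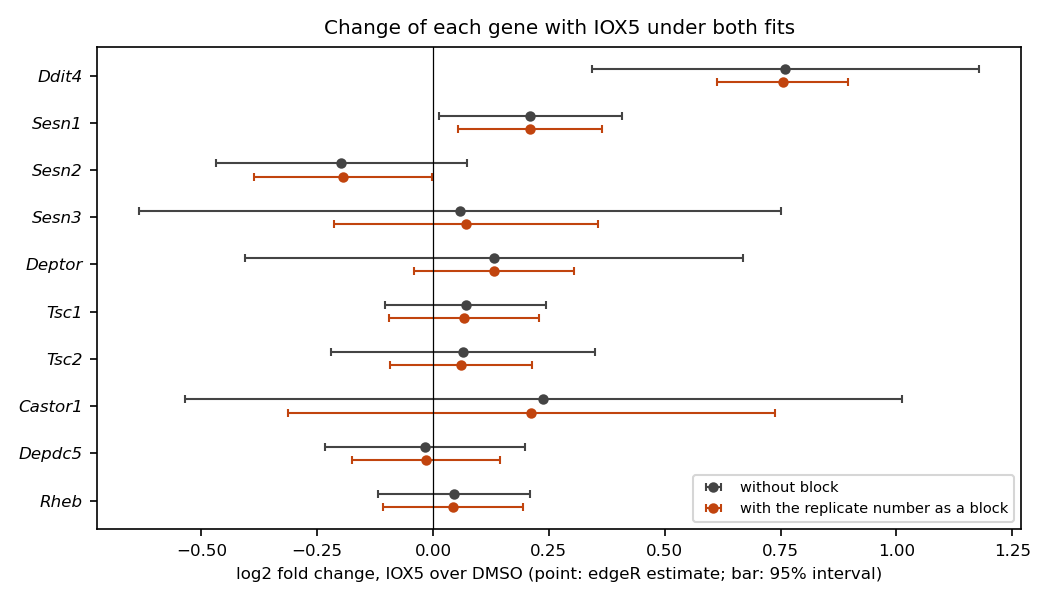
Log2 fold change of IOX5 over DMSO (horizontal axis) of the 10 genes, with edgeR estimates as points and 95% intervals as bars, in gray without a block and in red with the sample number as a block. Both intervals of *Ddit4* and of *Sesn1* lie above 0, the blocked interval of *Sesn2* ends just below 0, and those of the other 7 genes include 0.

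Per kilobase of exon, *Ddit4* had the highest level of the 10 genes in both groups and *Sesn3* the lowest. With DMSO, *Ddit4* was at 29.2 ± 5.87 CPM per kilobase and *Sesn2* at 21.4 ± 3.15 (SD, n = 4), and their ranges overlapped. With IOX5 they no longer did, *Ddit4* lying between 37.7 and 62.4 and *Sesn2* between 15.6 and 19.9 CPM per kilobase. Below them with DMSO came *Rheb* at 12.2 ± 0.659 and *Sesn1* at 11.7 ± 0.908, which overlapped, then *Tsc2* at 7.84 ± 0.989 and *Tsc1* at 4.997 ± 0.108. *Depdc5* at 3.34 ± 0.358 and *Deptor* at 3.09 ± 0.843 overlapped as well, and *Castor1* stood at 1.74 ± 0.532 and *Sesn3* at 0.546 ± 0.202. With IOX5 *Sesn1* came before *Rheb* and *Deptor* before *Depdc5*, both within overlapping ranges. These levels use all annotated exons of a gene as its length.

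Calls in the rest of the pathway depended on the block. Of 77 further genes in 12 lists, 74 were tested, and edgeR called 0 of them without the block, against 17 at an unadjusted p under 0.05 (20.2% of all genes) and 3 higher and 2 lower by DESeq2 (3.92% and 4.95% of all genes). With the block 14 were called higher and 4 lower, where 11.2% of all genes were called higher and 9.43% lower. Their median log2 fold change was 0.055, with 45 positive and 29 negative, where 52.8% of all genes were positive and their median was 0.017.

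Genes of the lysosomal platform were mostly positive. Of 12 RAG and Ragulator genes, including the folliculin genes, 11 had a positive estimate, against 52.8% of all genes, with a median of 0.14. *Lamtor4*, which encodes a Ragulator subunit, went from 69.3 ± 3.73 to 86.3 ± 7.79 CPM (log2 fold change 0.32, edgeR adjusted p = 0.0676, with the block 0.0043). *Rragd*, encoding RAGD, was at 0.740 ± 0.257 and 1.81 ± 0.915 CPM, a low level, with DMSO samples between 0.406 and 1.01 CPM. Its log2 fold change of 1.27 was larger than that of *Ddit4* but less certain (SE 0.413). *Rragd* was called with the block (edgeR adjusted p = 0.00818, against 0.136 without). *Lamtor2* and *Flcn* rose and *Fnip1* fell in the blocked fit.

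Among the sensors and complexes upstream, calls came only with the block, which called 11.2% of all genes higher and 9.43% lower. In GATOR1, *Nprl2* had a log2 fold change of 0.38 and *Nprl3* of -0.037, and *Nprl2* passed with the block (edgeR adjusted p = 0.0428, against 0.159 without). None of the 5 GATOR2 genes passed with or without the block (1 at an unadjusted p under 0.05, 0 by DESeq2), with *Sec13* at -0.14 and *Wdr24* at 0.19. In KICSTOR, which tethers GATOR1 to the lysosome, *Itfg2* fell with the block (-0.26, edgeR adjusted p = 0.0493), and *BC048403* had an estimate of -0.30 and was not called. All 3 nutrient sensor genes had positive estimates, and *Castor2*, a relative of *Castor1*, passed with the block (0.38, edgeR adjusted p = 0.0339). *Slc38a9*, encoding the lysosomal arginine sensor, was at 0.27 and not called.

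Around TSC and the kinase complexes, the partners *Tbc1d7* (0.053) and *Rhebl1* (0.060) were not called. *Txnip*, whose product binds REDD1, went from 141.8 ± 26.7 to 181.1 ± 15.5 CPM (0.35) and passed with the block (edgeR adjusted p = 0.0347, against 0.192 without). None of the 6 mTORC1 core genes, the 4 mTORC2 genes or the 8 AMPK and LKB1 genes tested passed with or without the block, at an unadjusted p under 0.05 or by DESeq2. The extremes of these lists by p included *Tti1* at 0.16, *Mlst8* at -0.14, *Prr5* at -0.38, *Rictor* at -0.084, *Prkab2* at 0.18 and *Cab39* at -0.094. Over all genes tested, the block called 11.2% higher and 9.43% lower, and 20.2% had an unadjusted p under 0.05 without it. DESeq2 called 3.92% higher and 4.95% lower. Of the PI3K and AKT genes, those that rose in the blocked fit included *Pik3cg* (0.31, edgeR adjusted p = 0.00737) and *Pik3cd* (0.26, edgeR adjusted p = 0.0228). *Pik3cg* and *Pik3cd* encode PI3K catalytic subunits found in blood cells, which are not the only ones there.

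Among 15 tested genes for mTORC1 substrates and effectors, 4 rose and 2 fell with the block, against 11.2% and 9.43% of all genes. *Larp1*, which encodes a repressor of ribosomal protein mRNA translation, went from 511.2 ± 44.2 to 394.8 ± 33.2 CPM (-0.37, edgeR adjusted p = 0.0560, with the block 0.00524). *Eif4e*, the cap-binding factor gene, went from 195.4 ± 7.17 to 160.5 ± 12.9 CPM (-0.28, edgeR adjusted p = 0.0675, with the block 0.0120). The genes that rose were *Pdcd4*, encoding an inhibitor of translation initiation (0.40), *Eef2k*, encoding the kinase that halts elongation (0.35), *Lpin1* (0.38) and *Maf1*, encoding a repressor of RNA polymerase III (0.20). These are transcript levels and say nothing of the phosphorylation by which mTORC1 acts on the proteins.

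The known inducers of the brakes were read from target lists that leave out the 10 genes. For each list the shares of all genes to set beside its counts are 52.8% with a positive estimate, 0.774% called higher and 1.25% lower without the block, 11.2% higher and 9.43% lower with it, and 20.2% at an unadjusted p under 0.05. A gene can belong to more than 1 class, and the memberships named here are not complete. HIF targets, a class to which *Ddit4* belongs, had 13 of 13 positive estimates, a median of 0.43, 5 calls without the block and 11 with it. *Ankrd37* went from 6.05 ± 0.806 to 15.8 ± 1.98 CPM (1.38, edgeR adjusted p = 0.0143), although a part of its exons lies opposite another expressed gene. *Pdk1*, *Kdm3a*, *Bnip3* and *P4ha1* were the other calls, at 0.67, 0.55, 0.98 and 0.53. Of 12 p53 targets, a class that includes *Sesn1* and *Sesn2*, 11 were positive with a median of 0.60, and 1 was called without the block and 10 with it. *Trp53inp1* went from 35.1 ± 4.52 to 66.6 ± 15.4 CPM (0.93, edgeR adjusted p = 0.0333).

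The ATF4 targets ran the other way. *Sesn2* and *Ddit4* also belong to this class. Of the 11 genes in the list, which counts *Atf4* itself, 7 had negative estimates, the median was -0.25, 2 fell without the block and 6 with it. *Chac1*, encoding an enzyme that degrades glutathione, went from 17.2 ± 2.62 to 7.07 ± 0.811 CPM (-1.28, edgeR adjusted p = 0.0157), and *Trib3* fell by 0.55 on the log2 scale (edgeR adjusted p = 0.026). *Atf4*, already included in these counts, was at -0.25 and fell with the block (edgeR adjusted p = 0.0184). Of 9 FOXO genes and targets, 8 were positive, and 0 were called by edgeR without the block (5 at an unadjusted p under 0.05, 4 higher by DESeq2) and 5 with it. *Ccng2* was at 0.42 (edgeR adjusted p = 0.0591, with the block 0.00167). Of the 5 glucocorticoid receptor targets, 0 were called by edgeR with or without the block, at an unadjusted p under 0.05 or by DESeq2, with *Per1* at -0.21. *Ddit4* is also a target of that receptor.

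**Figure D4:**
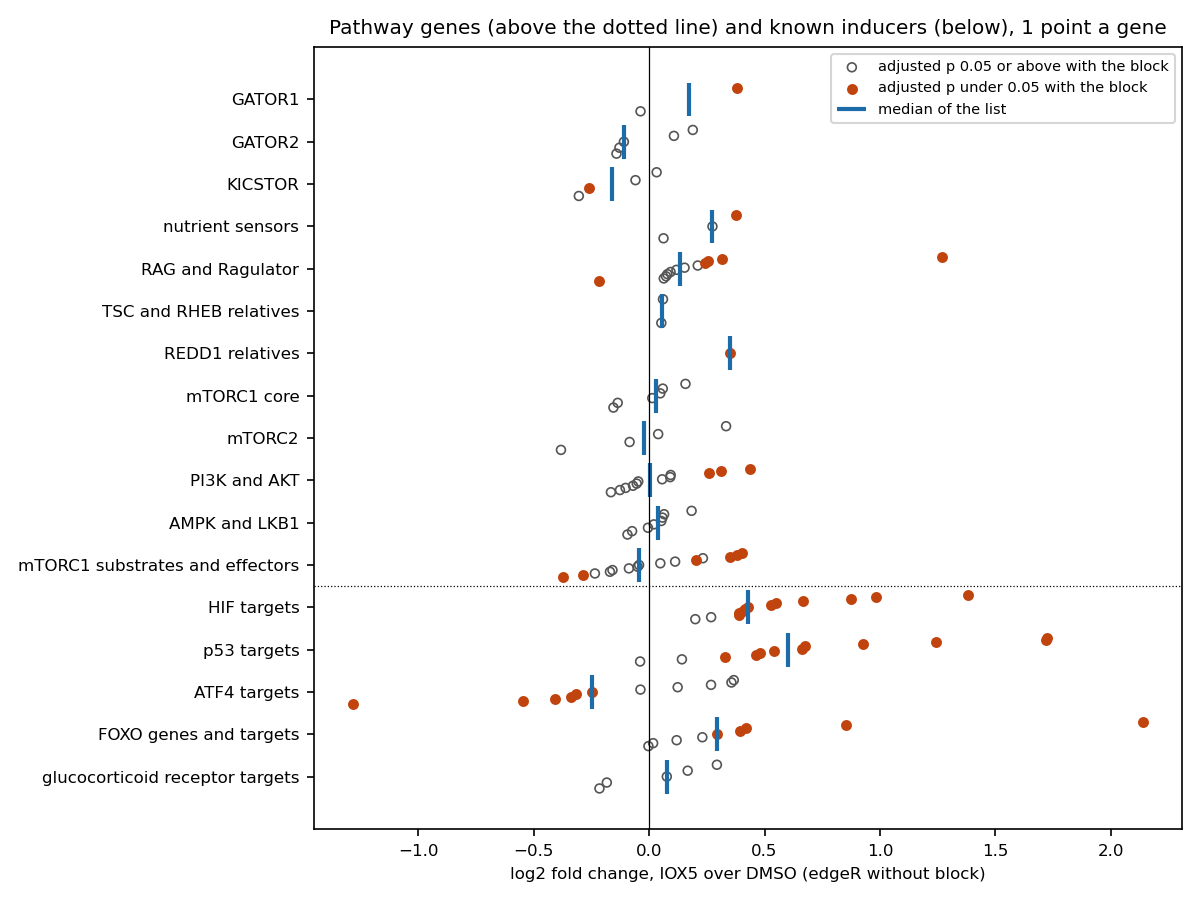
Log2 fold change of IOX5 over DMSO (horizontal axis, edgeR without a block) of the genes of 12 pathway lists and, below the dotted line, of 5 lists of inducer targets, with 1 point for each tested gene, filled where the blocked fit called it, and a blue bar at the median of the list. The HIF and p53 lists have medians of 0.43 and 0.60, the ATF4 list a median of -0.25, and the medians of the pathway lists lie between -0.16 and 0.35.

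The genes most like *Ddit4* over the 8 samples were found by Pearson's correlation of log2 CPM among 8917 genes with a mean of at least 10 CPM. They were *Bckdha* (r = 0.986), *Tap2* (0.972), *Slc48a1* (0.971), *Sun2* (0.971) and *Klhl6* (0.969). *Bckdha*, a gene of the branched-chain keto acid dehydrogenase, went from 41.9 to 57.4 CPM on average, a log2 fold change of 0.46. The 8 samples share 2 treatments and 4 numbers, so this likeness describes the order of the samples.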

How the data were processed

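RNA-seq was done on 8 samples of *iMLL-AF9* cells, 4 per group, grouped by their treatment label. According to the methods and the submitters' processing notes, the authors prepared directional single-end libraries from poly(A) RNA, trimmed the reads with Cutadapt 1.18, mapped them to GRCm38 with HISAT2 2.2.1 and obtained the deposited counts per Ensembl gene with HTSeq 2.0.1, without normalization. The annotation release and strand setting used in counting are not given in the sources used here. The 5 summary lines of each file held 20.6 to 21.5% of reads with DMSO and 20.8 to 22.6% with IOX5 and were left out. GENCODE M21 gave names and coordinates for 54809 of 54838 genes, and 29 did not match.

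Counts were analyzed in R 4.3.3 with edgeR 4.0.16 (filterByExpr, TMM factors of 0.988 to 1.03, quasi-likelihood test, Benjamini-Hochberg adjustment, threshold 0.05). The common biological coefficient of variation was 0.202 without and 0.0794 with the block. Log2 CPM used a prior count of 2. Same-numbered samples deviated together from their group means, with correlations of 0.758, 0.744, 0.732 and 0.636 for numbers 1 to 4. Between different numbers the correlations ran from -0.615 to 0.685. DMSO number 4 correlated more with IOX5 number 3 (0.685) than with IOX5 number 4 (0.636). DMSO number 3 correlated at 0.617 with IOX5 number 4, so this check did not clearly separate numbers 3 and 4. The numbers were taken as pairs, a pairing that comes from the data and not the labels. No pair of replicates agreed within sampling noise (chi-square per degree of freedom of 2.17 or more). Two-sided permutation tests (scipy 1.17.1) were exact, with 4 samples against 4, and did not use the numbers as pairs. The alternatives were the replicate block, DESeq2 1.42.0, RLE and upper-quartile factors, no filter, a minimum of 10 counts in every sample, and each sample or number left out. The steps were tested on simulated data.

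The 10 genes and the gene lists were chosen with earlier results of these data known, and the lists were written by hand. Genes named were the 10, the 2 genes of each pathway list and the 1 gene of each inducer list with the smallest unadjusted p, and the 5 genes most correlated with *Ddit4*. Other genes were named, after their values were seen, because a fit called them, and the marker genes as examples. Values of some single genes of the lists are not reported here.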

Additional observations from a re-analysis of the deposited data

Results flagged for a closer look

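Among 24 groups of 4 samples examined, 3 had a sample far from the other 3 by Dixon's ratio of gap to range at the 95% level, which chance gives in about 1 in 20 groups. *Sesn2* had its lowest IOX5 value, 54.1 CPM, in number 1, away from 66.8 to 69.0 CPM in the others. *Tsc1* had its lowest DMSO value, 57.2 CPM, in number 2, where the other 3 samples lay between 59.5 and 59.9 CPM, so that the gap was large only beside a narrow range. *Castor1* had its highest IOX5 value, 5.32 CPM, in number 3, against 2.31 to 2.69 CPM in the others.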

How the results depend on the processing

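The fold change of *Ddit4* stayed positive in every fit run, 0.75 with the replicate block and 0.77 with DESeq2, and 0.63 to 0.89 when samples or numbers were left out. It was called in each blocked fit (edgeR adjusted p of 1.73e-08 to 0.000765 with a number left out) and in none of the other edgeR fits (0.0579 to 0.18 with a sample left out). The block gave 1394 higher and 1170 lower genes, 1 of the 10 genes and 14 higher and 4 lower pathway genes, and it changed the call of no other of the 10. DESeq2 gave 433 and 546 genes, 1 of the 10, and 3 and 2 pathway genes. Without a filter 73 genes were lower. With samples left out, without or with the block, 0 to 1355 genes were called higher and 0 to 1058 lower, 0 to 3 of the 10 genes, and 0 to 13 pathway genes higher and 0 to 5 lower. Without the block, 0 genes were called without DMSO number 3, DMSO number 4 or IOX5 number 3, with 1969, 1846 and 2111 genes at an unadjusted p under 0.05. The *Tsc2* to *Tsc1* difference ran from -0.067 to 0.068. Estimates that were not called changed sign for *Castor1* (-0.12 to 0.47), *Depdc5* (-0.074 to 0.046, and 0.00051 with upper-quartile factors), *Deptor* (-0.064 to 0.30), *Rheb* (-0.014 to 0.087), *Sesn3* (-0.15 to 0.26) and *Tsc2* (-0.014 to 0.16). The causes were not tested.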
